A study of Homo sapiens with 6 samples.

Results

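Expression of the HOXA genes HOXA3, HOXA4, HOXA5, HOXA6, HOXA7, HOXA9, HOXA10 and HOXA11 and of their cofactors MEIS1 and PBX3 was followed in THP-1 cells after NFIC knockdown. These 10 genes were taken by name from a count table of 33981 genes, and all 10 were found. THP-1 is an acute monocytic leukemia line that carries a fusion of KMT2A (MLL) with MLLT3 (AF9). Cells received a lentiviral vector with GFP and either a scrambled shRNA (3 samples) or an shRNA against NFIC (3 samples), and were grown, per the labels, in IMDM with FBS, where the study's supplement gives RPMI. GFP+ cells were sorted 4 days after infection, and their RNA was sequenced in bulk as paired reads. According to the study's methods the control vector was GFP only, whereas its results, its figure legends and the labels give a scrambled control, the name used here. The text of the study also names the controls C1, C2 and C4, while the table's columns and the labels used here have C1, C3 and C4. The 6 samples share the cell line, the infection and the sort, and nothing in the labels says that replicates were separate cultures, so p-values measure only the spread between these samples. Since the samples are bulk RNA, fewer cells with a given RNA and less of it per cell cannot be told apart.

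HOXA genes encode homeobox transcription factors that lie side by side on chromosome 7 and pattern the body axis in development. In blood, the 5′ genes of the cluster, above all HOXA9 and HOXA10, are active in stem and progenitor cells and are shut down as myeloid cells mature. Leukemias with a KMT2A fusion keep HOXA9 and MEIS1 on through DOT1L, menin and the elongation machinery, and MEIS1 and PBX3, homeodomain proteins of the TALE class, bind DNA together with HOXA9. NFIC is a member of the nuclear factor I family, whose proteins bind as dimers to paired TTGGC and GCCAA motifs.

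To show what the starts of these genes look like beside the letters that NFI proteins recognise, promoter sequences were read from RefSeq (GRCh38.p14). A window held 250 bases before an annotated start and 50 bases after it. Of the 10 genes, 9 had an entry, with 16 windows in all, and HOXA5 had none. The 250 bases before the start are printed for HOXA3 (chr7:27152584-27152833, minus strand, the farthest upstream of its 7 starts), HOXA6 (chr7:27147775-27148024, minus strand), HOXA9 (chr7:27165538-27165787, minus strand) and PBX3 (chr9:125747933-125748182, plus strand). They are the genes with an entry that rose with NFIC shRNA. The HOXA3 window overlaps an exon of the antisense RNA HOXA-AS3, and the windows of HOXA6, HOXA9 and PBX3 lie inside their genes as GENCODE gives them, downstream of the farthest annotated start. Each sequence runs 5′ to 3′ along the gene, with TTGGC and its reverse complement GCCAA in capitals.
HOXA3: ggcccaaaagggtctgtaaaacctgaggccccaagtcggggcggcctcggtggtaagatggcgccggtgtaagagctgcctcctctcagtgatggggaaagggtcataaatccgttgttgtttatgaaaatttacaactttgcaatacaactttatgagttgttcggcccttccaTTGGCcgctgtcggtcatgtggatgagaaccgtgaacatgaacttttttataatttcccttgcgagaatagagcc
HOXA6: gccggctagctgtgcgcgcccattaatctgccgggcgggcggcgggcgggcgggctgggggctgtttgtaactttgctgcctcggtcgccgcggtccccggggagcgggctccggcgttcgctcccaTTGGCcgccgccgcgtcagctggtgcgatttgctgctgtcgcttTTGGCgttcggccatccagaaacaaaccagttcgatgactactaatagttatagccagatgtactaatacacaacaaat
HOXA9: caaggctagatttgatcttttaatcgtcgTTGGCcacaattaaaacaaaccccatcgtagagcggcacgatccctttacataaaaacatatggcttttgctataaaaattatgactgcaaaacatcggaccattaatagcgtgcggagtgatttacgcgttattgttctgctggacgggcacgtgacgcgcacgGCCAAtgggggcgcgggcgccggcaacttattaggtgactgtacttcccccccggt
PBX3: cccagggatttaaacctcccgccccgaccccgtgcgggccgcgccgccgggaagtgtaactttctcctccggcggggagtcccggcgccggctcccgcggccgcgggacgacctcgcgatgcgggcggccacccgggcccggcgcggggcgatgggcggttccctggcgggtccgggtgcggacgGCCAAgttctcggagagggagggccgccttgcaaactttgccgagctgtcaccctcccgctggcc

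The HOXA3 window holds TTGGC 75 bases before the start, and HOXA6 has it at 123 and 79 bases before. HOXA9 has TTGGC at 221 bases before the start and GCCAA at 56 bases before, while PBX3 has GCCAA at 65 bases before. Searched on both strands in the whole windows, TTGGC was present for 6 of the 9 genes, HOXA3, HOXA6, HOXA7, HOXA9, HOXA10 and PBX3, and was not found for HOXA4, HOXA11 and MEIS1. By window it was in 8 of the 16, and in only 2 of the 7 of HOXA3. A motif this short is common, with a match in 45.6% of the 35116 windows of all genes and for 50.6% of the 27305 genes. The longer TTGGCA, found in 12.5% of all windows, and the full dimer site, TTGGC and GCCAA with 5 bases between them, found in 0.0285%, were in none of the 16 windows. CCAAT, the box bound by NF-Y, was present in 34.6% of all windows and for 39.7% of all genes. It occurred in windows of 7 of the 9 genes. Several TTGGC matches overlap a CCAAT box, since ATTGGC and GCCAAT hold the letters of both. A match is only a description of the letters, and binding of NFIC was not measured.

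The targeted gene was lower in the NFIC shRNA samples. NFIC had 911, 1019 and 904 counts with scrambled shRNA against 399, 518 and 493 with NFIC shRNA, so the groups did not overlap. In CPM (a count relative to the total of its library, corrected by the TMM factors of edgeR) it went from 41.9 ± 0.445 to 21.0 ± 1.52 (SD, n = 3 each), a log2 fold change of -0.99 (SE 0.0723, adjusted p = 3.73e-09, edgeR). Total counts were between 20369543 and 24809720 per sample, and 3 counts, taken as the smallest detectable amount, are 0.122 to 0.146 CPM, a limit that covers counting error only. All 8 monocytic markers looked for were detected, and their summed level was 1199 to 1305 CPM in the scrambled samples and 1353 to 1548 CPM with NFIC shRNA. Of them LYZ, ITGAM and CD14 rose and CD68, CD33, CSF1R and MPO fell, with FCGR1A at 0.02 (SE 0.0568, adjusted p = 0.82). Of 12 markers of other blood lineages 7 were measured, and they summed to only 6.54 to 7.48 CPM and 3.69 to 4.42 CPM. The T cell gene CD3D and the globins HBA1 and HBB had at most 3 counts in any sample, and no other marker of these lineages had over 68 counts in a sample. The part of the monocytic markers in the results below was not tested.

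Levels were compared between genes with the deposited FPKM, which is per length of the exons. PBX3 had the highest level, 27.3 ± 0.913 FPKM in the scrambled samples and 38.0 ± 1.38 with NFIC shRNA (SD, n = 3 each). HOXA9 followed at 21.8 ± 0.677 and 25.5 ± 0.639 FPKM, then HOXA10 at 19.3 ± 0.429 and 21.0 ± 0.491, and HOXA11 at 11.5 ± 0.539 and 12.4 ± 1.11. Within each group these 4 genes did not overlap with their neighbours in the order. The other 6 genes lay far lower. HOXA7 stood at 3.08 ± 0.255 and 3.02 ± 0.181 FPKM, HOXA5 at 1.46 ± 0.142 and 2.68 ± 0.160, and MEIS1 at 1.45 ± 0.0977 and 1.63 ± 0.0475. HOXA6 had 0.809 ± 0.334 and 1.43 ± 0.128 FPKM, HOXA3 had 0.513 ± 0.0952 and 1.04 ± 0.069, and HOXA4 had 0.549 ± 0.155 and 0.397 ± 0.0724. In the scrambled samples HOXA5 and MEIS1 could not be separated, nor HOXA6, HOXA4 and HOXA3, whereas with NFIC shRNA only HOXA7 and HOXA5 overlapped. Thus the NFIC shRNA samples carried HOXA5 near the level of HOXA7, and HOXA3 above HOXA4 in every sample. FPKM divides by exon length, and the deposited table counts 10942 exon bases for MEIS1 and 3033 for HOXA9. Among the 19182 genes tested, HOXA9 stood at the 88.4th percentile of mean FPKM, PBX3 at the 91.8th, MEIS1 at the 29.6th and HOXA4 at the 12.7th.

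**Figure D1:**
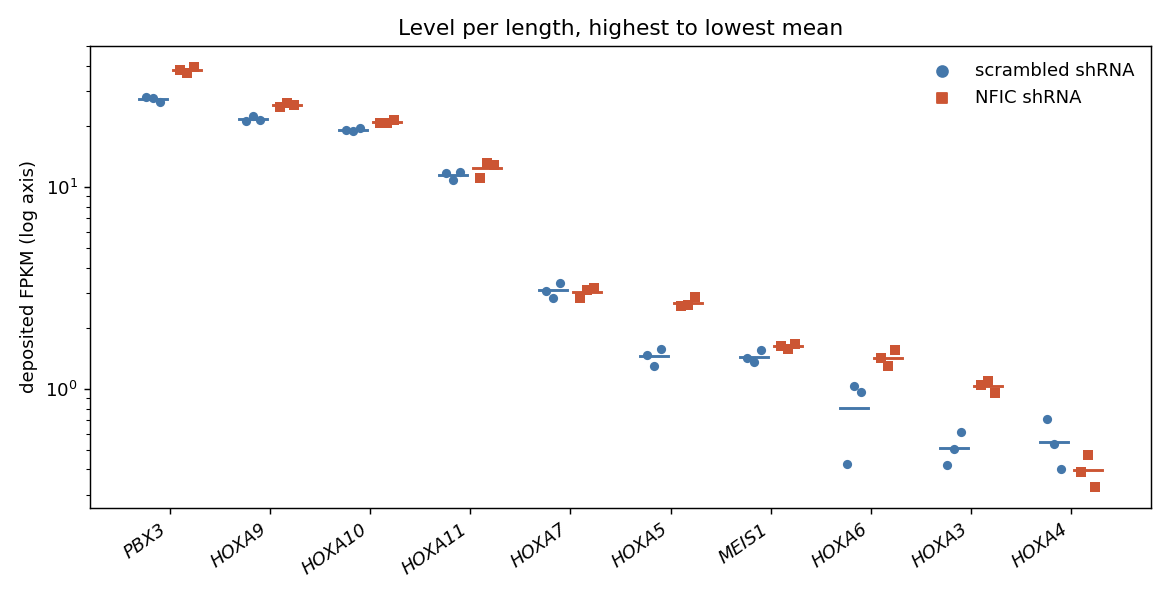
Deposited FPKM on a log axis for each gene, in order of the mean over 6 samples. Circles are scrambled samples, squares NFIC shRNA samples and bars group means (n = 3); PBX3, HOXA9, HOXA10 and HOXA11 lie above 10 FPKM in every sample and the other 6 genes below 4.

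The question for the knockdown was which of these genes differed between the NFIC shRNA and the scrambled samples. The study's figure legend names a single hairpin against NFIC for this comparison. Loss of NFIC and other effects of that hairpin therefore cannot be told apart. Of the 10 genes, 5 were higher with NFIC shRNA, HOXA3, HOXA5, HOXA6, HOXA9 and PBX3, none was lower, and 5 did not pass the threshold of an adjusted p under 0.05 (edgeR's quasi-likelihood test, Benjamini-Hochberg over the 19182 genes tested). Over all genes tested 59.9% were called, 29.6% higher and 30.3% lower, so 5 of 10 called is no more than the share of all genes, and the split of 5 to 0 stands beside one that was nearly even. At an unadjusted p under 0.05 the count of genes of the set that were lower was still 0, and DESeq2 gave 0 as well. The median log2 fold change of the 10 genes was 0.18, against -0.011 over all genes tested. For 7 of the 10 genes every NFIC shRNA sample lay above every scrambled sample, and for none of them below. Among all genes tested these shares were 32.2% and 33.0%. The set was not tested as a set.

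**Figure D2:**
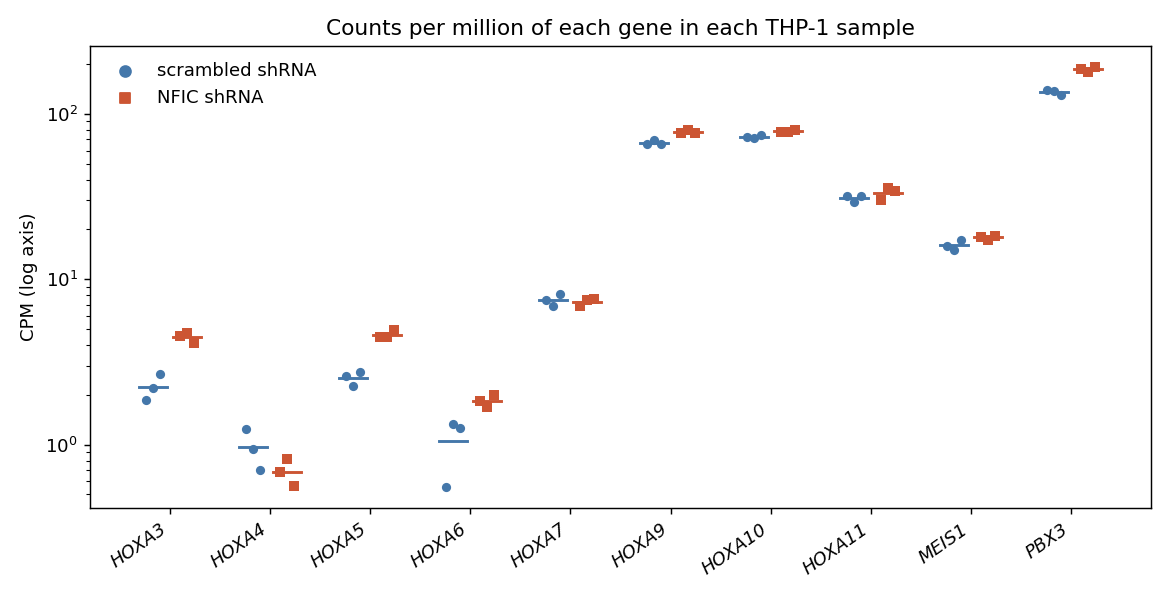
CPM of each gene in each sample on a log axis, with circles for scrambled and squares for NFIC shRNA samples and bars for the group means (n = 3). The groups overlap for HOXA4, HOXA7 and HOXA11 and are apart for the other 7 genes.

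The 3 genes that moved most were low in THP-1 cells and lie in the middle and 3′ part of the cluster. HOXA3, known for its role in the development of the thymus and parathyroid, had 40, 54 and 57 counts in the scrambled samples and 94, 110 and 95 with NFIC shRNA. Its lowest NFIC shRNA sample was well above its highest control, 4.12 against 2.66 CPM. The mean rose from 2.24 ± 0.408 to 4.47 ± 0.321 CPM (log2 fold change 1.00, SE 0.174, adjusted p = 9.33e-05, edgeR). An increase at least as large as this one was seen for 655 of the genes tested, 3.41%. HOXA5, which is needed for lung development, had 56, 56 and 59 counts against 92, 104 and 113. It was the most even of these 3 genes, at 2.28 to 2.76 CPM in the scrambled samples and 4.46 to 4.90 with NFIC shRNA. The log2 fold change was 0.87 (SE 0.159, adjusted p = 1.59e-04, edgeR), and its exons overlap no other gene's in the annotation. HOXA6, the neighbour of HOXA5, had 12, 33 and 27 counts against 38, 39 and 46. Here the control with 12 counts stood far below the other two, and the gap between the groups was small, 1.34 to 1.68 CPM. The log2 fold change of HOXA6 was 0.79 (SE 0.283, adjusted p = 0.0229, edgeR), but it was 0.49 with an adjusted p of 0.117 without that control, scrambled replicate 1. The call was also lost without NFIC shRNA replicate 3 (adjusted p = 0.0529) and with DESeq2 (adjusted p = 0.0671).

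The abundant 5′ genes had smaller fold changes. HOXA9, the main HOX gene of KMT2A-rearranged leukemia, had 1414, 1702 and 1413 counts in the controls against 1570, 1850 and 1770 with NFIC shRNA. Scaled to depth these were 65.4, 69.2 and 66.0 CPM against 76.2, 79.7 and 76.7 CPM, with no overlap. The rise was small but well above the spread, with a log2 fold change of 0.21 (SE 0.0548, adjusted p = 0.00276, edgeR), or 1.16-fold. HOXA10, which blocks myeloid maturation when overexpressed, had 72.7, 71.1 and 74.1 CPM against 77.6, 77.5 and 79.9 CPM. Its groups were apart as well, yet the log2 fold change of 0.11 (SE 0.053) did not pass (adjusted p = 0.0834, edgeR), except with total counts in place of TMM (0.13, adjusted p = 0.0394). With upper-quartile factors it was 0.05 (adjusted p = 0.389). HOXA11, a limb and uterus patterning gene, had 31.9, 29.5 and 32.0 CPM against 30.0, 35.4 and 34.2 CPM, so the groups overlapped. Its log2 fold change was 0.10 (SE 0.0763, adjusted p = 0.295, edgeR), with 0.05 to 0.17 as each sample was left out and 0.04 with upper-quartile factors.

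HOXA4 and HOXA7 did not pass the test. Along the chromosome HOXA4 lies between HOXA3 and HOXA5, which rose, and HOXA7 between HOXA6 and HOXA9, which also rose. HOXA4 was the rarest of the set, with 27, 23 and 15 counts in the scrambled samples and 14, 19 and 13 with NFIC shRNA. The groups overlapped, and with so few counts the log2 fold change of -0.48 had an SE of 0.324 (adjusted p = 0.213, edgeR). It was -0.26 without scrambled replicate 1 and ranged from -0.66 to -0.26 as each sample was left out. HOXA7 had 163, 170 and 174 counts against 141, 173 and 175. These are 6.91 to 8.13 CPM and 6.84 to 7.58 CPM, which overlap nearly in full. The log2 fold change of HOXA7 was -0.04 (SE 0.12, adjusted p = 0.786, edgeR), and its sign turned when scrambled replicate 3 or NFIC shRNA replicate 1 was left out (0.013 and 0.007).

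The cofactors differed from each other in their values. PBX3, on chromosome 9, had 3017, 3375 and 2784 counts in the scrambled samples and 3860, 4182 and 4432 with NFIC shRNA. In CPM these were 139, 137 and 130 against 187, 180 and 192, so every NFIC shRNA sample was far above the controls. PBX3 rose by a log2 fold change of 0.46 (SE 0.0506, adjusted p = 5.33e-07, edgeR), or 1.38-fold, the smallest adjusted p of the set. MEIS1, on chromosome 2, had 343, 372 and 368 counts against 371, 403 and 421. At 15.9, 15.1 and 17.2 CPM against 18.0, 17.4 and 18.2 CPM the groups were apart by only a little. The log2 fold change of MEIS1 was 0.16 (SE 0.0854) and did not pass (adjusted p = 0.125, edgeR). Whether PBX3 and MEIS1 differ in their change was not tested.

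The output of the 8 HOXA genes together was dominated by the 5′ genes in both groups. Their summed level was 184, 183 and 188 CPM in the scrambled samples and 202, 212 and 210 CPM with NFIC shRNA, and HOXA9 with HOXA10 made up 138 to 140 CPM and 154 to 157 CPM of it. For sums like these, apart in 3 against 3 samples, the two-sided exact permutation p is 0.1, the smallest it can be. HOXA9, HOXA10 and HOXA11 took 92.5%, 92.6% and 91.7% of the counts on the 8 genes in the scrambled samples and 90.9% in each NFIC shRNA sample. The share of HOXA3, HOXA5 and HOXA6 was 2.72%, 3.17% and 3.56% against 5.38%, 5.15% and 5.24%, 3 genes put together after their values were seen. Per length, PBX3 stood at 1.25 ± 0.0562 times HOXA9 in the scrambled samples and at 1.49 ± 0.0801 times with NFIC shRNA (SD, n = 3 each), with no overlap. The ratio of MEIS1 to HOXA9 was 0.0667 ± 0.00582 and 0.0639 ± 0.00309 and overlapped, as did the ratio of HOXA9 to HOXA10.

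The HOXA genes are packed closely, so reads could count for more than 1 gene. In GENCODE release 44, HOXA7 shares 62.5% of its exon bases with the antisense RNA HOXA-AS3, HOXA6 shares 39.3% with it and HOXA11 shares 27.2% with HOXA11-AS. HOXA9 and HOXA10 share 13.9% and 16.4% with HOXA10-AS. HOXA3, HOXA4 and MEIS1 share 17.3%, 16.5% and 13.3% with antisense RNAs. HOXA10-AS had 42.5 ± 0.376 CPM in the scrambled samples and 46.4 ± 1.15 with NFIC shRNA (SD, n = 3 each). Its log2 fold change of 0.12 (SE 0.0602) did not pass (adjusted p = 0.0850, edgeR). HOXA4 shares 31.3% of its exon bases with a gene on its own strand, and HOXA9 and HOXA10 share 15.9% and 9.9%, mostly with a read-through gene that joins them (ENSG00000257184). Whether the counting used strand is not given in the sources used here, so reads from a gene and its antisense partner cannot be told apart. All 15 annotated genes that lie wholly within exons of another gene on the same strand in this region carried counts, so reads in shared exons were not left out of the table. The read-through gene itself rose by a log2 fold change of 0.20 (SE 0.0685, adjusted p = 0.0203, edgeR), close to HOXA9. It shares 51.9% of its own exon bases with HOXA9 and 48.1% with HOXA10, so its counts are not separate from theirs. A noncoding gene (ENSG00000272801) shares 80.4% of its exon bases with HOXA3 and 15.5% with HOXA6 on the same strand, and 95.7% with the antisense HOXA-AS3. It had 13, 19 and 13 counts against 35, 46 and 29, and rose by 1.30 (SE 0.288, adjusted p = 8.50e-04, edgeR). Its rise is therefore not separate from that of HOXA3, and how many HOXA3 reads lie in the shared bases was not measured. HOXA5 and PBX3 share exon bases with no gene.

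Values outside the set were also taken from the ends of the cluster. HOXA13, the most 5′ gene and a patterning gene of the distal limb, had 652, 709 and 601 counts in the scrambled samples and 805, 892 and 1005 with NFIC shRNA. It rose by 0.48 on the log2 scale (SE 0.0712, adjusted p = 1.84e-05, edgeR). HOXA2 was too low to test, with 0, 3 and 1 counts against 6, 11 and 4. Of the 7 noncoding RNAs measured in or beside the cluster, 2 rose, 1 fell and 4 did not pass, a share called below the 59.9% of all genes tested. HOXA11-AS rose by 0.48 (SE 0.0728, adjusted p = 2.04e-05) and HOTTIP, an RNA at the 5′ end that recruits the WDR5 complex, by 0.34 (SE 0.118, adjusted p = 0.0188, both edgeR). The call of HOTTIP was lost with upper-quartile factors and without scrambled replicate 2, scrambled replicate 3 or NFIC shRNA replicate 2. MIR196B, whose annotated bases lie wholly inside HOXA9 exons, had 23, 36 and 21 counts against 17, 12 and 17 (log2 fold change -0.77, SE 0.308, adjusted p = 0.0397, edgeR). That fall was lost with DESeq2 (adjusted p = 0.17), with the replicate block (adjusted p = 0.0666), with no filter on low counts and without scrambled replicate 1 or 2 or NFIC shRNA replicate 2 or 3, and counts from mRNA libraries do not measure the mature miRNA. HOTAIRM1 at the 3′ end had a log2 fold change of -0.57 (SE 0.277, adjusted p = 0.0841) and HOXA-AS3 one of 0.18 (SE 0.114, adjusted p = 0.182, both edgeR).

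Most of the tested HOX genes outside the HOXA cluster fell. Of 28 HOXB, HOXC and HOXD genes listed 18 were measured and 8 were high enough to test, and of these 0 rose and 6 fell, with a median log2 fold change of -0.69. Over all genes tested 29.6% rose and 30.3% fell. No HOXB, HOXC or HOXD gene was called higher with DESeq2 either, and at an unadjusted p under 0.05 the count of higher genes was again 0. HOXB4, a self-renewal gene of blood stem cells, had 148, 144 and 131 counts in the scrambled samples and 82, 93 and 88 with NFIC shRNA, with no overlap. It fell by 0.67 on the log2 scale (SE 0.138, adjusted p = 4.46e-04, edgeR). HOXC4 had 74, 55 and 75 counts against 16, 27 and 18 and changed by -1.73 (SE 0.254, adjusted p = 1.48e-05, edgeR). HOXB3, HOXB6, HOXB13 and HOXC6 changed by -0.56, -0.91, -0.86 and -0.72, and the calls of HOXB6 and HOXC6 were lost with DESeq2 (adjusted p = 0.0840 and 0.154). The groups of HOXB6 overlapped, with 20, 42 and 30 counts against 12, 22 and 14. Over the 13 alternatives 4 to 6 of the HOXB, HOXC and HOXD genes were called lower. HOXB7 and HOXC10 did not pass (log2 fold changes -0.10 and 0.50). These genes were low, at 1.34 to 6.27 CPM in the controls among the 6 that fell, and the difference between the clusters was not tested.

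Among the other TALE genes, 9 were tested, of which 2 rose, 2 fell and 5 did not pass, so the share called did not exceed the 59.9% of all genes tested. PBX2, the most abundant PBX gene here, had 5062, 5482 and 5126 counts against 5447, 6193 and 5797 and rose by 0.17 (SE 0.0498, adjusted p = 0.00752, edgeR). IRX5 rose by 0.24 (SE 0.0865, adjusted p = 0.0215, edgeR), and neither of these rises passed with upper-quartile factors. MEIS3 fell by 0.62 on the log2 scale (SE 0.178, adjusted p = 0.00606) and TGIF1, a repressor of TGF-beta signaling, fell by 0.54 (SE 0.0945, adjusted p = 1.18e-04, both edgeR). MEIS2, PBX4, PKNOX1, TGIF2 and IRX3 had log2 fold changes between 0.01 and 0.18.

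**Figure D3:**
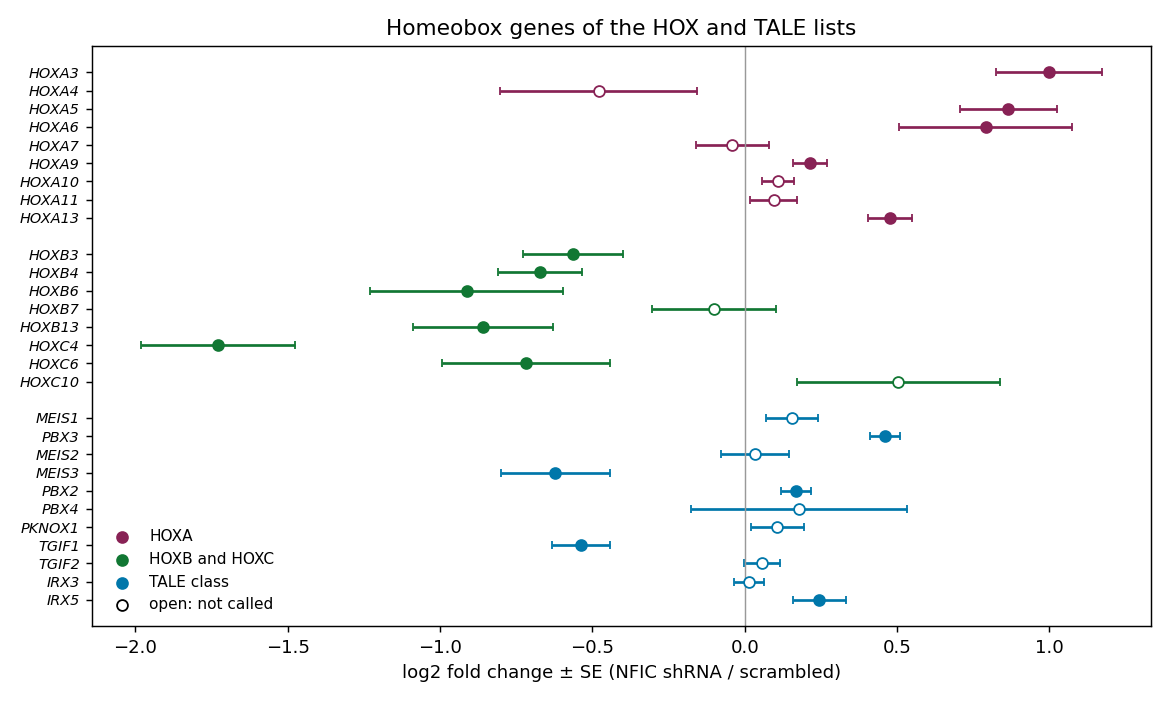
Log2 fold change of NFIC shRNA over scrambled (± SE, n = 3 each) for tested HOX and TALE genes, with filled points for genes that passed the test. All 6 HOXB and HOXC genes that passed lie left of 0, and all 5 HOXA genes that passed lie right of it.

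Genes of the machinery that keeps HOXA genes on in KMT2A leukemia were called in both directions. Of 28 genes of the KMT2A complex and its elongation partners, all tested, 15 rose and 7 fell, with a median log2 fold change of 0.17, beside 29.6% higher and 30.3% lower over all genes tested. KMT2A had 1464, 1637 and 1424 counts against 1870, 2020 and 2250 and rose by 0.46 (SE 0.0568, adjusted p = 2.35e-06, edgeR), while reads on KMT2A and MLLT3 mix the fusion with the normal alleles. MLLT3 (0.05, SE 0.125, adjusted p = 0.763) and MEN1, which encodes menin (0.09, SE 0.0673, adjusted p = 0.243, both edgeR), did not pass. DOT1L, the H3K79 methyltransferase, rose by 0.23 (SE 0.0512, adjusted p = 7.91e-04, edgeR). ASH1L, PAF1 and AFF4 rose by 0.94, 0.77 and 0.54, and MLLT6, DPY30, WDR5 and PSIP1 had log2 fold changes of -0.96, -0.74, -0.41 and -0.28. Of 18 Polycomb genes, which silence HOX clusters, 8 rose and 6 fell, with a median of 0.0056, beside the same 29.6% and 30.3%. CBX7, EED, PHC3 and JARID2 rose by 0.77, 0.52, 0.42 and 0.31, CBX8, CBX2 and PHC2 had changes of -0.63, -0.50 and -0.23, and the H3K27 methyltransferase EZH2 rose by 0.27 (SE 0.0736, adjusted p = 0.00441, edgeR).

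Genes known as targets of HOXA9 and MEIS1 were called in both directions, as were all genes. Of 22 listed, 19 were tested, of which 7 rose and 8 fell, near the even split of all genes tested (29.6% higher, 30.3% lower), and the median log2 fold change was -0.14. FLT3, the receptor kinase most often tied to MEIS1, had 2066, 2318 and 2064 counts in the scrambled samples and 1057, 1242 and 1348 with NFIC shRNA. It fell by 0.81 on the log2 scale (SE 0.0589, adjusted p = 3.77e-09, edgeR), beside the values of MEIS1 given above. MYC, BCL2 and HIF1A had log2 fold changes of -1.39, -0.46 and -0.41, whereas CCND3, SYK, MEF2C and CDK6 rose by 0.93, 0.61, 0.43 and 0.37. MYB did not pass (-0.04, SE 0.0503, adjusted p = 0.479, edgeR). CD34 and ERG were too low to test.

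Of 12 genes flanking these loci 10 were tested, and 5 rose and 3 fell, with a median of 0.24, where 29.6% and 30.3% of all genes tested did so. Beside the 3′ end of the HOXA cluster, SKAP2 had 1433, 1520 and 1422 counts against 1839, 2175 and 2067 and rose by 0.49 (SE 0.0555, adjusted p = 7.94e-07, edgeR), and SNX10 farther out rose by 0.81. EVX1, at the 5′ end past HOXA13, was nearly silent, with 1, 0 and 0 counts in each group, while HIBADH beyond it had a log2 fold change of -0.49 and TAX1BP1 one of 0.55. Around PBX3, GAPVD1 rose by 0.52 and MVB12B had a change of -0.77. ETAA1, near MEIS1, had one of -0.44, which did not pass with DESeq2 (adjusted p = 0.0838).

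The genes most like HOXA9 over the 6 samples, by Pearson correlation of log2 CPM among 10057 protein-coding genes, were MAPKAPK2, STK39 and NECTIN2 (r = 0.996, 0.995 and 0.995). For HOXA10 they were TAOK3, USPL1 and MFSD2A (r = 0.998, 0.998 and 0.997), and for PBX3 RNF213, FAM200B and ZBTB10 (r = 0.999 in each case). MEIS1 was closest to AGPAT3, TRAPPC6B and ARPIN-AP3S2 (r = 0.993, 0.992 and 0.989). The points are the same 6 libraries in 2 groups, so these values carry the difference between the groups and no test was made of them.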

How the data were processed

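Bulk RNA of 6 samples of sorted THP-1 cells was sequenced. Per the labels and the study's methods, paired reads were trimmed with Trim Galore, checked with FastQC, mapped to GRCh38 with STAR and assigned to Ensembl genes with featureCounts. The authors deposited these counts per gene without normalization, and FPKM values made from counts normalized with DESeq2 and the gene length. Their columns of normalized counts and of their own comparison (fold change, error, p-values) were not used.

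From the deposited counts, log2 fold changes were fitted in R 4.3.3 with edgeR 4.0.16, using TMM factors, filterByExpr and robust quasi-likelihood tests over all 6 samples, without a replicate block. The filter kept 19182 genes, all 10 genes of the set among them, and Benjamini-Hochberg adjustment covered all of them, with a threshold of 0.05. Each sample held between 20369543 and 24809720 counts. No pair of samples agreed within counting noise. Alternatives were DESeq2 1.42.0, other normalizations and filters, a replicate block and each sample left out in turn. On simulated data with 19182 genes, edgeR recovered 87% of genes changed by 1 on the log2 scale and 69% of those changed by 0.58. Of its calls 9.8% were false, above the threshold of 0.05. The simulation changed only a small part of the genes, while 59.9% were called in the data, so its rates do not carry over.

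Positions and exon overlaps came from GENCODE release 44 (GRCh38). The genes and the lists were chosen with earlier results of these data known. Named were every gene of the set, NFIC, tested genes of the HOX, TALE and cluster RNA lists, up to 4 called genes in each direction of the other lists with the smallest adjusted p, and KMT2A, MLLT3, MEN1, DOT1L, EZH2, FLT3, MYB, SKAP2 and EVX1. The cell markers, the genes sharing exons with the set, CD34 and ERG were named beside this rule, and some genes that the rule takes in are not reported here.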

Additional observations from a re-analysis of the deposited data

How the results depend on the processing

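The number of the 10 genes called higher was 4 to 6 over 13 alternatives (4 to 5 when a sample was left out) and the number called lower was 0 in each. HOXA3, HOXA5, HOXA9 and PBX3 stayed higher in all 13, with log2 fold changes of 0.878 to 1.134, 0.782 to 0.922, 0.157 to 0.234 and 0.403 to 0.489. HOXA4, HOXA11 and MEIS1 passed in none. HOXA6 was at 0.815 with DESeq2 (adjusted p = 0.0671) and at 0.488 to 1.01 when a sample was left out, and lost its call without scrambled replicate 1 or NFIC shRNA replicate 3. HOXA7 ranged from -0.106 to 0.013 when a sample was left out, turning to 0.013 and 0.007. HOXA10 passed with total counts (0.128, adjusted p = 0.0394). Of the other HOXA genes 2 were higher with no filter on low counts, which brings HOXA2 into the test. Of the RNAs of the cluster 1 was called higher with upper-quartile factors, 4 with total counts and 1 to 2 with a sample left out (1 without scrambled replicate 3). For the RNAs called lower the number was 0 with DESeq2, with no filter and with the replicate block, and 0 to 1 with a sample left out (0 without scrambled replicate 2 or NFIC shRNA replicate 3). Of the other TALE genes 0 were higher with upper-quartile factors and 1 to 2 with a sample left out (1 without scrambled replicate 1 or 3, or NFIC shRNA replicate 2 or 3). Ordered by the scrambled samples alone, 8 of the 10 genes kept their rank in FPKM. Where no construction is named, the cause was not tested. Samples that share a replicate number did not deviate together (correlations of 0.0563, -0.0862 and -0.0446), so the replicate block pairs them by number only. With it 5 of the 10 genes were called higher and 0 lower. Low counts limit what can be said of HOXA4 and HOXA6 (12 to 46 per sample) and of the low HOX genes and RNAs outside the set.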
